A study of Mus musculus with 24 samples.

Results

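The Ly6C hi and Ly6C low monocyte subsets of mice that lack both Slc29a3 and Tlr7 were compared across all genes measured, with 8 of the 24 libraries of the series, 4 from each subset. Both subsets came from the spleens of untreated C57BL/6 mice of the genotype Slc29a3-/- Tlr7-/-, so that both gene disruptions were present on either side of the comparison. By the study's methods the Slc29a3 allele carried an insertion with a stop codon in exon 2 and the Tlr7 allele a lesion in exon 5, both made with CRISPR/Cas9. The ages of the animals were not given in the sources used here, and neither was whether a library came from 1 mouse or several. By the methods, which describe the step for WT and Slc29a3-/- mice, T, B and NK cells, erythroid cells and neutrophils were depleted from the spleen cells with magnetic beads. CD11b+ cells without NK1.1 or Ly6G were then sorted into a gate with high Ly6C and low Fcgr4 and a gate with low Ly6C and high Fcgr4. Siglec-F was stained too, but the methods do not name it in the gates. The labels call the cells macrophages, whereas the study calls them monocytes, and the latter name is used below. The other 16 libraries, 4 for each subset of WT and of Slc29a3-/- mice, served as a background for the same contrast.

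Ly6C hi monocytes leave the bone marrow shortly after they form, carry the chemokine receptor CCR2, and enter inflamed tissue. Ly6C low monocytes are thought to derive from them, depend on the nuclear receptor NR4A1, and patrol the vessel wall, where they take up debris and bind immune complexes through FcγRIV. SLC29A3 exports nucleosides from the lysosome, and TLR7 senses nucleosides and single-stranded RNA in the same compartment.

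Each value was the reads of 1 amplicon, a short stretch amplified from each gene, per 1000000 reads of the library (RPM). The 8 libraries held between 12311129 and 12983693 reads, as inferred from the even step between low values, so that 3 reads amounted to 0.231 to 0.244 RPM. The Ly6C hi libraries carried sequencing barcodes 37 to 40 and the Ly6C low libraries barcodes 43 to 46, and an effect of barcode could therefore not be told apart from subset. Xist, an RNA made from the inactive X chromosome of females, and Ddx3y, a gene of the Y chromosome, were both read in Ly6C hi replicate 2 at 299 and 70.2 RPM, in Ly6C hi replicate 3 at 109 and 85 RPM, and in Ly6C low replicate 2 at 425 and 98.9 RPM. These 3 libraries thus held RNA with marks of both sexes, whereas each of the other 5 held only 1 of the 2 RNAs above 1 RPM. Counts for the main gene groups are therefore also given without the 3 libraries. Nothing in the labels says that the replicates were separate mice, and p-values measure the spread between these libraries only.

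The gates could be followed in the sort genes, which were no findings. Fcgr4, at chromosome 1, 171018926 to 171029761 (mm10), encodes FcγRIV and was read at 42.7, 55.2, 49.6, and 36.8 RPM in Ly6C hi replicates 1 to 4 and at 1306, 1683, 1582, and 1750 RPM in the Ly6C low replicates. Itgam, which encodes CD11b, was read at 1524 to 2174 RPM in Ly6C hi and 1410 to 1865 RPM in Ly6C low libraries. Fcgr4 thus separated the subsets without overlap while Itgam overlapped. Ly6c1 and Ly6c2, which encode Ly6C, were not analysed here. Of the markers that define the Ly6C hi label, Ccr2 was read at 864, 132, 1211, and 511 RPM in Ly6C hi and at 107, 43.8, 10.9, and 1.76 RPM in Ly6C low libraries, a difference of 4.70 ± 1.03 (log2 scale, SE, limma adjusted p = 0.0079). Every Ly6C hi library was above every Ly6C low one, although Ly6C hi replicate 2 and Ly6C low replicate 1 lay close together. Ace, the angiotensin-converting enzyme, was read at 431, 185, 358, and 393 RPM in Ly6C hi and at 1345, 1772, 1395, and 1100 RPM in Ly6C low libraries. Adgre4, an adhesion receptor of the EGF-TM7 family, was read at 718, 636, 440, and 533 RPM against 2541, 2168, 3062, and 3748 RPM. Both of these Ly6C low markers separated the subsets, with differences of -2.08 ± 0.26 and -2.30 ± 0.21, and the markers measured therefore followed the labels.

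Slc29a3 and Tlr7 amplicons were read in all 8 libraries. Neither amplicon is known to lie on its allele's lesion, and the reads are therefore no check of the genotype. Slc29a3, at chromosome 10, 60712072 to 60752849 (mm10), was read at 208, 413, 273, and 194 RPM in Ly6C hi and at 47.0, 52.8, 47.6, and 74.1 RPM in Ly6C low libraries, 2.23 ± 0.25 higher on the log2 scale (adjusted p = 0.00013). Tlr7, on chromosome X, was read at 322, 259, 345, and 343 RPM in Ly6C hi and at 627, 542, 584, and 355 RPM in Ly6C low libraries, a difference of -0.71 ± 0.20 (adjusted p = 0.026). The mutant Slc29a3 RNA was thus the more abundant in Ly6C hi and the mutant Tlr7 RNA in Ly6C low monocytes, with no overlap in either gene.

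How far the subsets differed across all genes was examined first. Of the 10157 genes that reached 1 RPM in no fewer than 4 of these 8 libraries, 1318 (13%) were called higher and 716 (7.05%) lower in Ly6C hi monocytes, 20% together, at a fold change over 1.5 and a Benjamini-Hochberg adjusted p under 0.05. Differences over 4-fold were found in 414 genes that were higher and 136 that were lower. Of the 2034 genes called, 1895 had no overlap between the 4 Ly6C hi and the 4 Ly6C low libraries. The calls were made from these same values, so that this is no separate support for them. Of all genes tested, 25.7% had no overlap, 16% with Ly6C hi above and 9.7% with Ly6C hi below. Fold changes are on the scale of log2(RPM + 1), which understates them for genes of low level. Over all genes the median difference was 0.12. When the libraries were rescaled by RLE factors, which centre the typical gene, it was 0.01, and 1131 genes were called higher and 918 lower. Every gene called kept its direction under both rescalings. Without the 3 libraries of mixed sex, which left 2 Ly6C hi and 3 Ly6C low libraries, 647 (6.37%) of the same 10157 genes were called higher and 281 (2.77%) lower. All 2034 of the genes called from 8 libraries kept their direction, and 897 were still called. When the limit of 1 RPM in 4 libraries was applied to those 5 libraries, which drops genes read in 1 subset alone, 398 genes were called higher and 232 lower. Counts given below without the 3 libraries are those of the same genes. The counts for gene lists below are to be read beside the 13% higher and 7.05% lower of all genes tested.

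**Figure D1:**
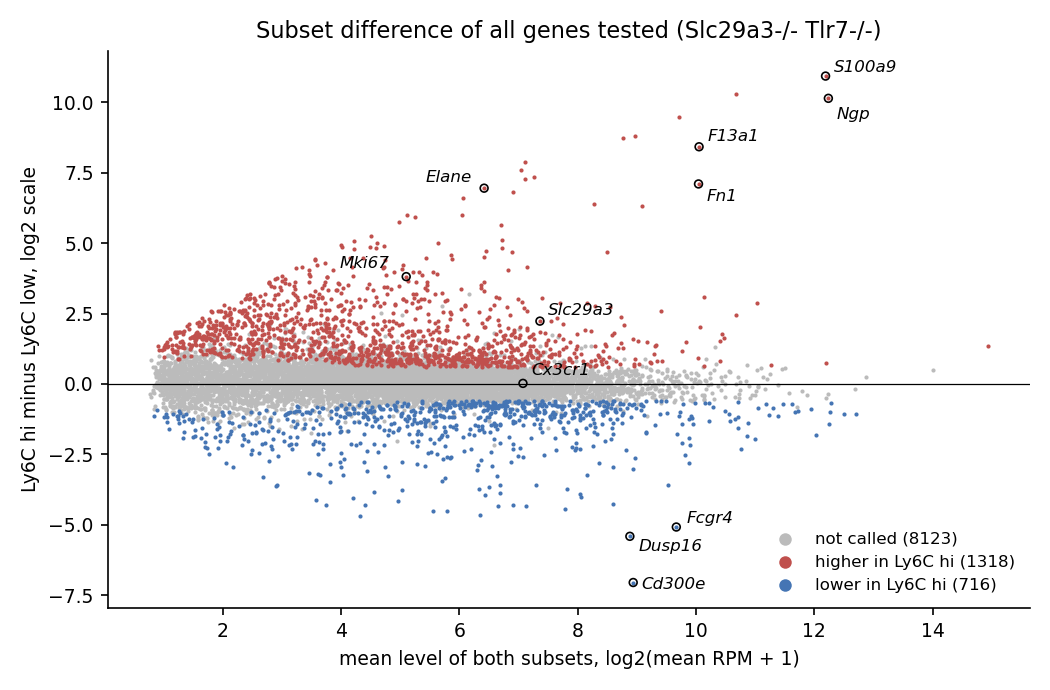
Mean level of both subsets (x axis, log2 of mean RPM + 1) against the difference between Ly6C hi and Ly6C low monocytes (y axis, log2 scale) for each of the 10157 genes tested. Red points are the 1318 genes called higher in Ly6C hi, blue points the 716 called lower, and grey points the rest; the circled genes reach from S100a9 at 10.93 to Cd300e at -7.05.

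Most of the genes with the largest excess in Ly6C hi monocytes encoded proteins of neutrophil granules and cytosol. S100a9, which encodes a subunit of calprotectin, was read at 12485, 5048, 5188, and 14667 RPM in Ly6C hi and at 8.40, 0.0, 2.68, and 8.63 RPM in Ly6C low libraries, a difference of 10.93 ± 0.67 (adjusted p = 2.5e-06). The other subunit, S100a8, was read at 5876, 587, 2230, and 4465 RPM against 5.01, 0.318, 0.316, and 0.32 RPM. Ly6C hi replicates 2 and 3 were the lowest for S100a9 and S100a8, and both were among the libraries of mixed sex. Ngp and Camp, which encode the granule proteins neutrophilic granule protein and cathelicidin, differed by 10.14 ± 0.89 and 9.49 ± 0.55. Ltf and Lcn2, which encode the iron-binding lactoferrin and the siderophore-binding lipocalin 2, differed by 8.79 ± 0.57 and 8.74 ± 0.50. Wfdc21 and the collagenase gene Mmp8 completed this group with 7.36 ± 0.44 and 7.26 ± 0.54.

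Of 16 neutrophil genes tested, 14 were higher, none lower, and the median difference was 6.82. Without the libraries of mixed sex the same number were called and the median was 6.72. Ly6g itself, whose product the gate excluded, was read at 39.8, 8.20, 2.77, and 15.7 RPM in Ly6C hi libraries and at 0 in all 4 Ly6C low libraries, which made it at least 68.6-fold higher against a floor of 3 reads per library. Summed over the 16 genes, neutrophil markers held 38219, 14521, 14569, and 42141 RPM in the Ly6C hi libraries and 159 to 224 RPM in the Ly6C low libraries. The neutrophil sum in Ly6C hi replicates 1 and 4 was thus well above that in replicates 2 and 3. Padi4, a citrullinating enzyme, and Itgb2l, an integrin gene of neutrophils, differed by 4.46 and 5.93. The part that other cells or the Ly6C hi monocytes themselves had in these reads was not tested, and in RNA from sorted pools more cells of a type cannot be told apart from more RNA per cell.

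Genes of azurophil granules and of myeloid progenitors were also higher in Ly6C hi monocytes. Of 18 such genes, 13 were called higher, none was lower, and the median difference was 3.62. Their summed level was 2186 to 2525 RPM in Ly6C hi and 1274 to 1543 RPM in Ly6C low libraries, of which Calr, the calreticulin gene, held a mean of 1161 and 1193 RPM without differing beyond the replicate error (-0.05 ± 0.17). Elane, which encodes neutrophil elastase, was read at 90.0, 204, 143, and 237 RPM in Ly6C hi and at 0.081, 0.238, 0.237, and 0.639 RPM in Ly6C low libraries, a difference of 6.95 ± 0.32. Prtn3, which encodes proteinase 3, was read at 148, 234, 275, and 391 RPM against 0.0, 0.715, 0.079, and 0.479 RPM, a difference of 7.59 ± 0.32. Replicates 2 and 3 exceeded replicate 1 in both of these serine protease genes, in contrast to the order seen in S100a9. Ms4a3, a marker of granulocyte-monocyte progenitors, was read at 50.3, 47.4, 60.4, and 112 RPM in Ly6C hi libraries and at 0 in each Ly6C low library, at least 278-fold higher. Fcnb, which encodes a ficolin, differed by 7.88 ± 0.30. Mpo, which encodes myeloperoxidase, stayed at 2.46 to 5.28 RPM in Ly6C hi and at or below 0.079 RPM in Ly6C low libraries. Cd34, a marker of stem and progenitor cells, did not pass the test, with 2.0 to 9.26 against 1.70 to 2.38 RPM. Without the libraries of mixed sex, 12 of these 18 genes were called and the median was 4.22.

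**Figure D2:**
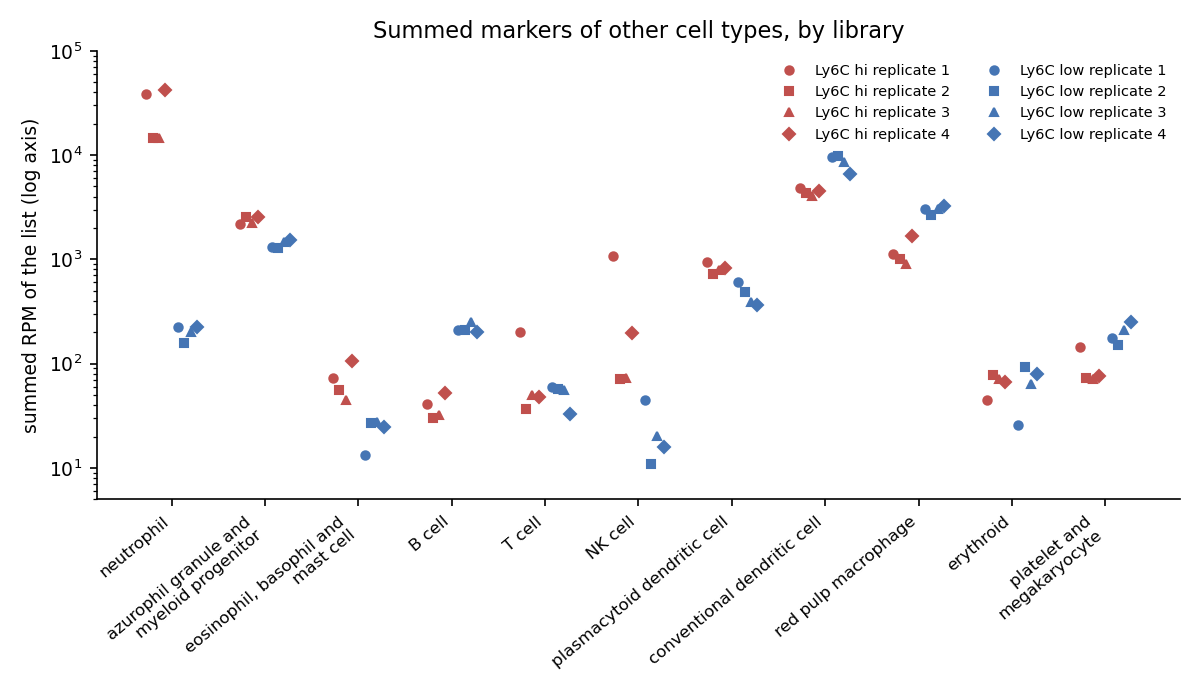
Summed RPM of the marker genes of 11 cell types or states (x axis) in each library, on a log axis; red symbols are Ly6C hi and blue symbols Ly6C low libraries, and the symbol shape gives the replicate. The neutrophil sum separates the subsets most, at 14521 to 42141 against 159 to 224 RPM, and the NK cell sum of Ly6C hi replicate 1 stands at 1071 RPM.

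Among genes known for Ly6C hi monocytes, 13 of 15 were higher and none was lower, with a median difference of 2.36. The 13 included the label marker Ccr2, which is no separate finding. They also included Mmp8 and Cd177, which were counted among the neutrophil genes as well. Without the libraries of mixed sex 10 were called and the median was 2.31. F13a1, which encodes a subunit of coagulation factor XIII, was read at 1571, 2329, 2651, and 1917 RPM in Ly6C hi and at 11.1, 1.11, 5.21, and 7.67 RPM in Ly6C low libraries, a difference of 8.42 ± 0.45 (adjusted p = 1.5e-06). For Fn1, which encodes fibronectin, the values were 1258, 3167, 2237, and 1718 RPM against 9.85, 9.05, 23.4, and 15.4 RPM, a difference of 7.10 ± 0.33. Ly6C hi replicate 1 was the lowest Ly6C hi library for both genes. Both were among the 12 largest differences toward Ly6C hi, which were picked from genes without overlap between the subsets. Vcan, which encodes the proteoglycan versican, differed by 6.81 ± 0.56. Smaller differences were found in Hp (haptoglobin, 2.36), Plac8 (2.02), the LPS co-receptor gene Cd14 (1.60), and the lysozyme gene Lyz2 (1.34), the last of which held 45045 RPM on average in Ly6C hi and 17601 RPM in Ly6C low libraries.

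Genes known for Ly6C low monocytes showed the opposite pattern, in that 20 of 22 were lower in Ly6C hi, none was higher, and the median was -2.53. Among the 20 were the sort gene Fcgr4 and the label markers Ace and Adgre4, which are no separate findings. Without the libraries of mixed sex 17 were called and the median was -2.20. Cd300e, which encodes an activating receptor that signals through DAP12, was read at 19.8, 2.84, 3.17, and 7.78 RPM in Ly6C hi and at 1000, 937, 997, and 954 RPM in Ly6C low libraries, a difference of -7.05 ± 0.45 (adjusted p = 3.4e-06). Dusp16, which encodes a phosphatase of JNK and p38, was read at 36.4, 14.5, 18.0, and 18.0 RPM against 688, 1065, 955, and 976 RPM, a difference of -5.41 ± 0.26. Ly6C hi replicate 1 was the highest Ly6C hi library for both genes, yet far below the Ly6C low range. Treml4, a receptor for dead cells, was read at 368, 196, 194, and 190 RPM against 2088, 1691, 1674, and 1136 RPM, and Slc12a2, a sodium, potassium and chloride transporter gene, differed by -4.27 ± 0.24. The fractalkine receptor gene Cx3cr1 was one of the exceptions, with 198, 63.8, 137, and 121 RPM in Ly6C hi and 229, 174, 96.6, and 51.9 RPM in Ly6C low libraries. Its difference was 0.02 ± 0.46 (adjusted p = 0.99) and the direction was negative under both rescalings.

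Cd36, Pparg, and Fabp4 were among the 12 genes with the largest differences toward Ly6C low. Cd36, which encodes a scavenger receptor for oxidized lipids, was read at 25, 11.5, 16.9, and 20 RPM in Ly6C hi and at 341, 295, 476, and 572 RPM in Ly6C low libraries, a difference of -4.45 ± 0.27. Pparg, a nuclear receptor of fatty acids with Cd36 and Fabp4 among its known targets, was read at 29.3, 5.93, 6.10, and 13.3 RPM against 361, 354, 207, and 129 RPM, and the fatty acid binding protein gene Fabp4 at 11.2, 1.62, 1.11, and 4.17 RPM against 121, 143, 107, and 49.3 RPM. Pparg and Fabp4 were lowest in replicate 4 among the Ly6C low libraries, whereas Cd36 was highest there. Beside Cd300e, Dusp16, and the sort gene Fcgr4, the others of the 12 were Adrb1 (the β1 adrenergic receptor, -4.68), Lilra5 (-4.66), 2900026A02Rik (-4.51), Jade2 (-4.34), Setbp1 (-4.31), and Tgfbr3 (the coreceptor betaglycan, -4.30). The 12 were picked from genes without overlap between the subsets, so that the lack of overlap in them is no result. Among genes of cholesterol handling, 5 of 33 (15.2%) were higher and 5 (15.2%) lower, beside 13% and 7.05% of all genes. The lower ones included the efflux transporter genes Abca1 (-1.61) and Abcg1 (-1.36) and Apoe (-1.36), and the higher ones the synthesis genes Mvd (1.38) and Fdft1 (1.04). Without the libraries of mixed sex none of the list was called higher and 3 lower.

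**Figure D3:**
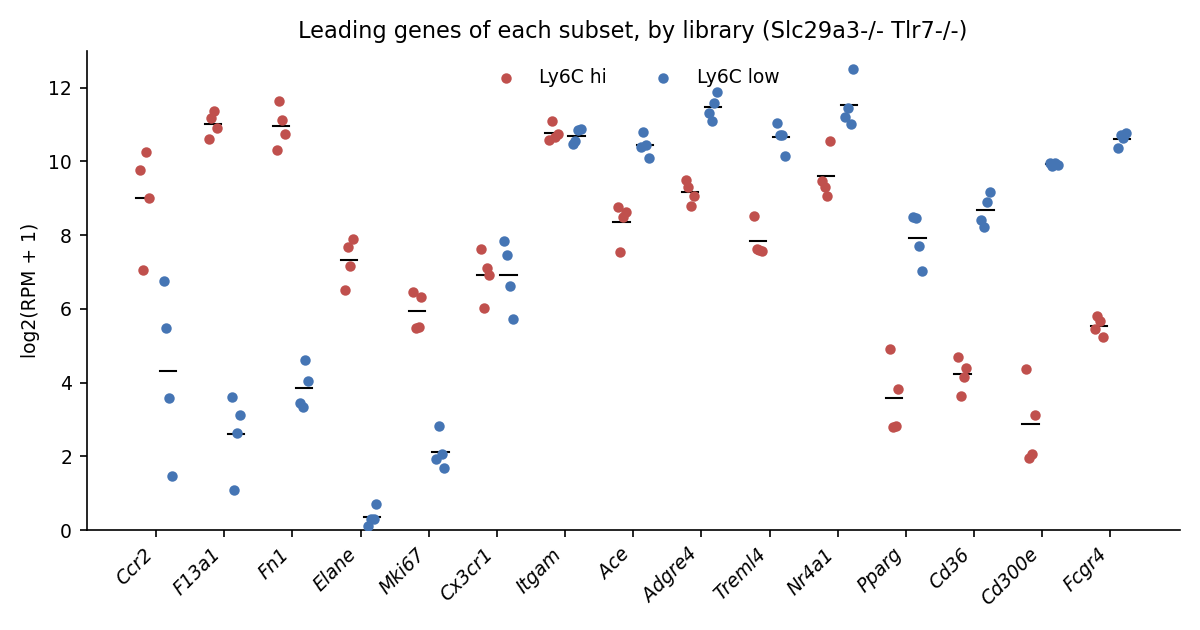
Level of 15 genes (x axis) as log2(RPM + 1) (y axis), with 1 point for each library and a bar at the mean of the 4 libraries of a subset (red, Ly6C hi; blue, Ly6C low). From Ccr2 to Mki67 the Ly6C hi points are above the Ly6C low points, Cx3cr1 and Itgam overlap, and from Ace to Fcgr4 the Ly6C low points are above.

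Transcription factors differed in both directions, with 11 of 39 higher and 9 lower in Ly6C hi. Nr4a1, on which Ly6C low monocytes depend, was read at 703, 637, 528, and 1492 RPM in Ly6C hi and at 2337, 2777, 2074, and 5820 RPM in Ly6C low libraries, a difference of -1.95 ± 0.37. In both subsets replicate 4 held the most. Klf4, a factor upstream of this lineage, was read at 214, 153, 145, and 183 RPM against 568, 464, 582, and 798 RPM, and Pou2f2, which encodes OCT2, differed by -1.71 ± 0.18. Cebpb, whose product sustains Ly6C low monocytes, differed by -1.31 ± 0.29. When the libraries of mixed sex were left out, 6 were called higher and 5 lower. Toward Ly6C hi, Gfi1, a repressor known from granulocytes, was read at 24.2, 18.2, 17.6, and 25.9 RPM in Ly6C hi and at 0 in all Ly6C low libraries but replicate 4, which held 0.24 RPM, a difference of 4.39 ± 0.26. Cebpe differed by 3.71, Myb by 2.25, Maf, a factor of macrophages, by 1.85, and Cebpa by 1.60. Irf8, which directs monocyte and dendritic cell fate, was read at 566, 355, 475, and 510 RPM against 387, 284, 197, and 166 RPM, a difference of 0.94 ± 0.26 (adjusted p = 0.027) with overlap between the subsets.

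Genes of the cell cycle were read at higher levels in Ly6C hi monocytes. Of 51 genes of G2 and mitosis, 35 were higher, 2 lower, and the median difference was 2.06. Mki67, which encodes the proliferation antigen Ki-67, was read at 86.7, 43.3, 44.3, and 78.3 RPM in Ly6C hi and at 2.83, 6.04, 3.16, and 2.24 RPM in Ly6C low libraries, a difference of 3.81 ± 0.33 (adjusted p = 2.2e-05). For Cdk1, the kinase that starts mitosis, the values were 62.8, 62.7, 46.3, and 91.5 RPM against 3.63, 8.26, 5.13, and 8.31 RPM. Top2a, which encodes the topoisomerase that untangles chromosomes, was read at 77.9, 111, 56.4, and 129 RPM against 3.96, 17.6, 14, and 13 RPM. The subsets did not overlap in any of the 3 genes. Ube2c, which encodes an enzyme of cyclin destruction, differed by 4.45 ± 0.46. Without the libraries of mixed sex 30 of the mitotic genes were called higher, none was called lower, and the median was 2.34. The 2 exceptions were Hjurp, a chaperone of the centromeric histone (-0.97), and Rangap1, a gene of nuclear transport (-0.62).

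Genes of DNA replication differed less. Of 39 tested, 15 were higher, none was lower, and the median was 0.66, or 0.80 with 12 genes called when the libraries of mixed sex were left out. Rrm2, which encodes a subunit of ribonucleotide reductase, was read at 89.6, 58.6, and 39.7 RPM in Ly6C hi replicates 1 to 3, higher still in replicate 4, and at 7.19, 6.99, 7.97, and 8.07 RPM in Ly6C low libraries, a difference of 3.01 ± 0.29. Cyclin E2, encoded by Ccne2, differed by 3.36 and the repressor gene E2f8 by 3.34. By contrast Mcm5, a subunit of the replicative helicase, was read at 39.1, 42.6, 39.2, and 49.2 RPM against 19.4, 28.2, 23.8, and 42.9 RPM, and its difference of 0.61 ± 0.24 did not pass (adjusted p = 0.10). Ly6C low replicate 4 lay within the Ly6C hi range for Mcm5.

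The promoters of 3 mitotic genes that were higher together in Ly6C hi monocytes are shown, namely those of Cdk1, Top2a, and Mki67, as the 250 bases before the start site in RefSeq (GRCm38.p6, that is mm10), 5′ to 3′ on the strand of the gene. Capitals mark matches on either strand to CCAAT (read ATTGG on the other strand), the box bound by NF-Y, and to TTTGAA (on the other strand TTCAAA), the cell cycle homology region bound by the DREAM and MuvB complexes. The windows are chr10:69352913-69353162 (minus strand), chr11:99024190-99024439 (minus strand), and chr7:135716380-135716629 (minus strand). The windows of Top2a and Mki67 reach into the annotated genes, whose 5′ ends lie at 99024199 and 135716450.
Cdk1: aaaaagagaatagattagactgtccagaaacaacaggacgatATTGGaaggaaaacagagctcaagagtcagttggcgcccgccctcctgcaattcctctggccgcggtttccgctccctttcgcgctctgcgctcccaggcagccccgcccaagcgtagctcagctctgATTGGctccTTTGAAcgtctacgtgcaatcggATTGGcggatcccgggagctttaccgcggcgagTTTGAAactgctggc
Top2a: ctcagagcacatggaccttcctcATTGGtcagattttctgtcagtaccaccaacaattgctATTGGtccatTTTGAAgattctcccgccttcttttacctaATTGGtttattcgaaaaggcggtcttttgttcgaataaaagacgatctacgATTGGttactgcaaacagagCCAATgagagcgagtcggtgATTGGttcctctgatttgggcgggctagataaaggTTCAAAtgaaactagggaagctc
Mki67: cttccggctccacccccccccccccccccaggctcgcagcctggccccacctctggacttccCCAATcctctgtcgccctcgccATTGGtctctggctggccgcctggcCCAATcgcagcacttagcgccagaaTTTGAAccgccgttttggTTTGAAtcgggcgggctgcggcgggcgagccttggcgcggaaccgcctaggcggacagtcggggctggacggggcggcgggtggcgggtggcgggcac
Cdk1 held 3 matches to CCAAT, Top2a 6, and Mki67 3, and each held 2 to TTTGAA. Of the 44 tested G2 and mitosis genes with a promoter in the table, 75% held CCAAT and 40.9% TTTGAA, beside 34.5% and 16.3% of all 27025 promoters of this length and 36.7% and 10.7% of those of the genes tested. For the 29 replication genes with a promoter the shares were 72.4% and 13.8%. A match is a description of the sequence only.

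Interferon-stimulated genes were a further group with higher levels in Ly6C hi monocytes. Of 33 tested, 21 were higher, none was lower, and the median was 1.00. After RLE rescaling 17 were called, and without the libraries of mixed sex 11 were called with a median of 0.99. Ifit1, which encodes a sensor of viral RNA caps, was read at 69.3, 57.2, 57.3, and 59.1 RPM in Ly6C hi and at 25.1, 3.81, 12.1, and 13.6 RPM in Ly6C low libraries, a difference of 2.31 ± 0.42 (adjusted p = 0.0027). The chemokine gene Cxcl10 was read at 97.8, 46.6, 72.5, and 122 RPM against 15.7, 6.75, 2.76, and 11.6 RPM, a difference of 3.19 ± 0.45. Irf7, the factor that amplifies interferon production, was read at 581, 441, 415, and 349 RPM against 229, 210, 188, and 344 RPM, a difference of 0.89 ± 0.22. Ifit1 and Cxcl10 did not overlap between the subsets, and the lowest Ly6C hi and the highest Ly6C low value of Irf7 were nearly equal. Usp18, which restrains the interferon receptor, differed by 2.79, Rsad2, which encodes viperin, by 2.11, and Stat2, a subunit of the factor ISGF3, by 1.42.

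The 250 bases before Ifit1 (chr19:34640639-34640888, plus strand) are shown with matches to the interferon-stimulated response element in capitals, searched on either strand as GAAA, 2 bases of any kind, and GAAA.
Ifit1: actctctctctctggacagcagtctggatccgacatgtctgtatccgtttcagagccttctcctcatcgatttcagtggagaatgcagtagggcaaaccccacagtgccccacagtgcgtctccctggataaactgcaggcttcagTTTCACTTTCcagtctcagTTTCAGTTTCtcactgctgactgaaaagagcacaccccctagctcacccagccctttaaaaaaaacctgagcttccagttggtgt
Both of its 2 matches were on the other strand and begin and end with TTTC here. Among the 24 interferon-stimulated genes tested that had a promoter in the table, 45.8% held this element, beside 3.04% of all promoters and 2.71% of those of the genes tested. Of the promoters of genes called higher, 4.09% held it, and of those called lower, 3.31%.

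**Figure D4:**
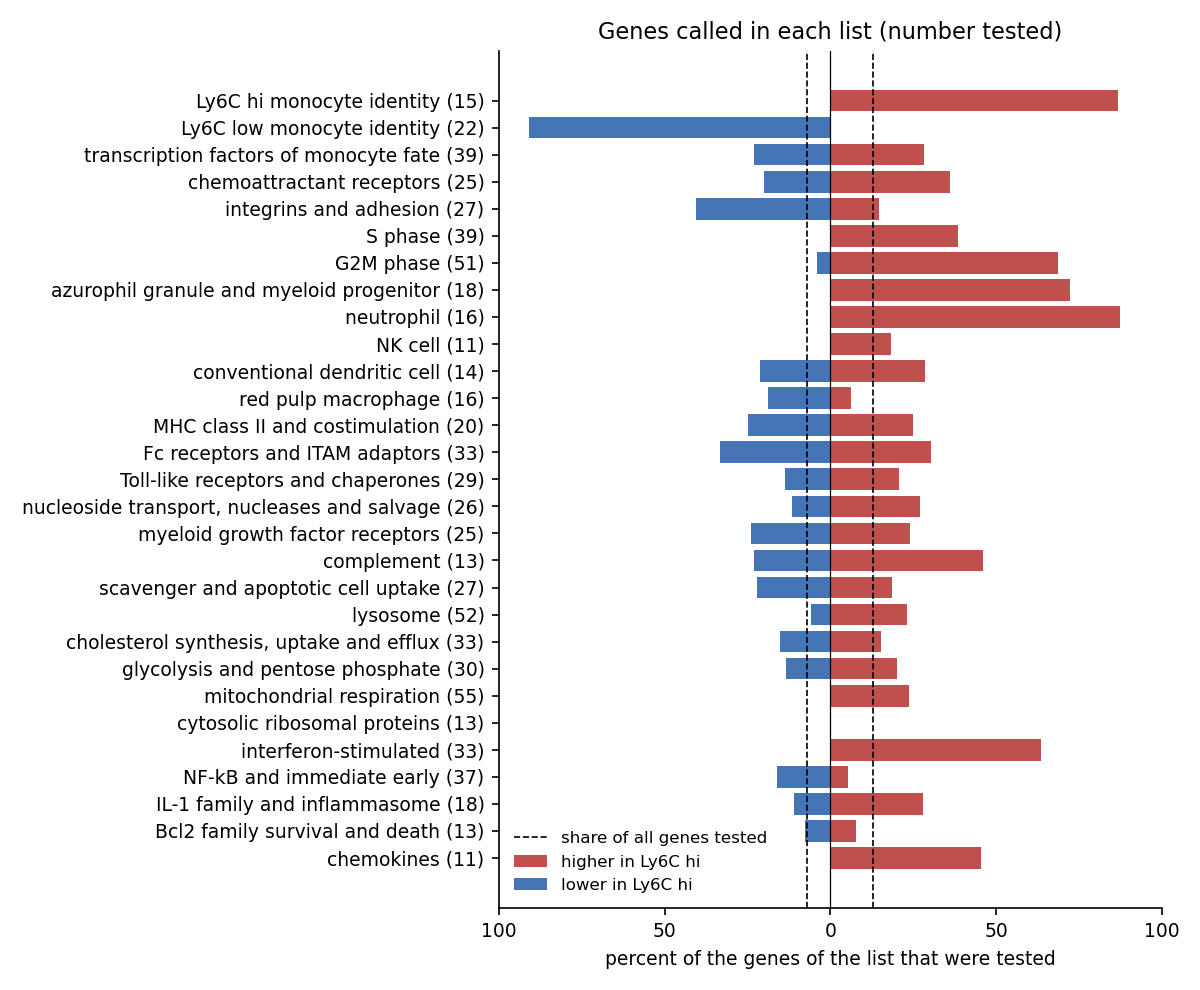
Share of the tested genes of each list of at least 10 tested genes (number in brackets) that were called higher (red, to the right) or lower (blue, to the left) in Ly6C hi monocytes, in percent. Dashed lines mark the shares of all genes tested, 13% and 7.05%; identity, mitotic, granule and interferon lists reach far past them and ribosomal proteins have no call.

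Receptors of migration were divided between the subsets. Of 25 chemoattractant receptors, 9 were higher and 5 lower in Ly6C hi. Among the 9 was the label marker Ccr2, which is no separate finding. Without the libraries of mixed sex 7 were called higher and 1 lower. Ccr1, a receptor of inflammatory chemokines, was read at 17, 76.9, 91.3, and 16.8 RPM in Ly6C hi and at 0.242, 0.874, 0.316, and 0.0 RPM in Ly6C low libraries, a difference of 4.88 ± 0.55. Ly6C hi replicates 2 and 3 were the high libraries of Ccr1. Cxcr4, which retains cells in bone marrow and spleen, was read at 558, 1044, 860, and 1657 RPM against 1519, 2209, 2347, and 4794 RPM, a difference of -1.38 ± 0.38 with overlap. S1pr5, which guides exit into blood, stayed below 7 RPM in all libraries and did not pass the test (adjusted p = 0.073). Of the chemokines themselves 5 of 11 were higher, among them Ccl9 (1.64), Ccl6 (0.82), and Ccl2, a ligand of CCR2, which was read at 4.39, 2.60, 2.14, and 1.68 RPM in Ly6C hi and at 0 in all Ly6C low libraries, at least 11.2-fold higher. Ccl3, by contrast, was read at 15.6, 21.0, 17.2, and 134 RPM against 32.1, 83.2, 21.8, and 281 RPM and was highest in replicate 4 of both subsets.

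Of 27 integrin and adhesion genes, 11 were lower and 4 higher in Ly6C hi, with a median of -0.72, and RLE rescaling made the counts 14 and 4. Itgal, the α chain of LFA-1 with which these cells crawl on endothelium, was read at 2148, 1875, 1492, and 1868 RPM in Ly6C hi and at 5058, 6350, 7070, and 7528 RPM in Ly6C low libraries, a difference of -1.81 ± 0.18. Itgax, which encodes CD11c, was read at 171, 63.8, 101, and 137 RPM against 1138, 1253, 1650, and 1381 RPM, and Pecam1, an adhesion molecule of leukocytes and endothelium, at 32.2, 32, 33.5, and 23.2 RPM against 438, 631, 463, and 465 RPM. Their differences were -3.59 ± 0.27 and -4.00 ± 0.18. Itgb2, the β chain shared by LFA-1, CD11b and CD11c, differed by -1.12, while Itga4, a chain of VLA-4, differed by -0.40 and was below the fold required. Itga1, a chain of a collagen receptor, went the other way with 3.99 ± 0.28.

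Activating and inhibitory receptors also moved in both directions, in that 10 of 33 Fc receptor and ITAM adaptor genes were higher and 11, the sort gene Fcgr4 among them, lower. Fcgr1, the high-affinity IgG receptor, was read at 211, 187, 172, and 146 RPM in Ly6C hi and at 72.4, 58.8, 40.2, and 46.2 RPM in Ly6C low libraries, a difference of 1.72 ± 0.21. Fcer1g, the signaling chain that FcγRI and FcγRIV share, was read at 2734, 3258, 2305, and 2733 RPM against 4669, 3941, 6018, and 5862 RPM, a difference of -0.88 ± 0.19. Clec5a, a receptor that signals through DAP12, was read at 27.3, 27.8, 29.2, and 35.5 RPM in Ly6C hi and at no more than 0.081 RPM in Ly6C low libraries, a difference of 4.92 ± 0.23. The DAP12 adaptor gene Tyrobp differed by 0.24 ± 0.15 and Fcgr3 by 0.50 ± 0.22, neither of which passed. Trem2 (2.96) was on the Ly6C hi side, and Trem1 (-2.62) and Cd300ld (-3.24) were on the Ly6C low side.

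Of 29 genes of Toll-like receptors and their chaperones, 6 (20.7%) were higher and 4 (13.8%), the disrupted Tlr7 among them, lower, beside 13% and 7.05% of all genes. In the fit without the libraries of mixed sex 1 was called higher and 2 lower. Tlr9, the endosomal DNA sensor, was read at 277, 208, 222, and 169 RPM in Ly6C hi and at 138, 95.2, 104, and 92.4 RPM in Ly6C low libraries, a difference of 1.02 ± 0.19 and opposite in direction to the disrupted Tlr7. Tlr4, the LPS receptor, was read at 53.7, 115, 70.5, and 68.0 RPM against 125, 103, 125, and 149 RPM, a difference of -0.74 ± 0.23 with overlap. Tlr5, the flagellin receptor, and Tlr6, which pairs with TLR2, differed by 1.88 and 1.63. Tlr8 (-0.10), Tlr13 (-0.27), Tlr2 (0.05), and the chaperone gene Unc93b1 (0.87 ± 0.29, adjusted p = 0.057) were not called.

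Among genes that transport, cut or salvage nucleosides and nucleic acids, 7 of 26 were higher and 3 lower. Besides Slc29a3, the higher genes were the salvage enzymes Uck2 (3.10), Aprt (2.57), Tk1 (1.98), Dck, and Ada (1.54) and the concentrative transporter Slc28a2 (1.08). Dck, which encodes deoxycytidine kinase, was read at 166, 152, 145, and 177 RPM in Ly6C hi and at 60.1, 47.8, 35.8, and 30.7 RPM in Ly6C low libraries. The plasma membrane transporter gene Slc29a1 went the other way from Slc29a3, with 16.3, 14.4, 17.9, and 10.4 RPM against 63.0, 57.0, 35.2, and 31.2 RPM, a difference of -1.56 ± 0.28. Dnase1l3, a secreted nuclease that degrades DNA of dead cells, was read at 28.9, 22.3, 26.1, and 48.2 RPM against 82.9, 74.8, 127, and 156 RPM, a difference of -1.78 ± 0.29. Samhd1, which breaks down deoxynucleotides, overlapped, with 839 to 1202 against 738 to 1388 RPM.

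Growth factor receptors were split, with 6 of 25 (24%) higher and 6 (24%) lower, beside 13% and 7.05% of all genes. Without the libraries of mixed sex 1 was called higher and 3 lower. Csf1r, the receptor of M-CSF, was read at 1337, 1739, 1347, and 1448 RPM in Ly6C hi and at 2084, 2068, 2892, and 4011 RPM in Ly6C low libraries, a difference of -0.87 ± 0.22. Csf2rb, the common β chain of the GM-CSF, IL-3 and IL-5 receptors, was read at 320, 460, 430, and 326 RPM against 193, 247, 212, and 204 RPM, a difference of 0.83 ± 0.17. Csf3r, the G-CSF receptor of neutrophils, was not called, at 158 to 209 against 146 to 175 RPM. The TGF-β receptor genes Tgfbr1 (-1.59) and Tgfbr2 (-1.17) were lower, as was their coreceptor Tgfbr3.

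In the complement list, 6 of 13 genes were higher and 3 lower, or 2 and 1 without the libraries of mixed sex. C3, the central component, was read at 2140, 1188, 2651, and 1993 RPM in Ly6C hi and at 375, 413, 185, and 92.1 RPM in Ly6C low libraries, a difference of 3.07 ± 0.44, and Cfp, which encodes properdin, differed by 1.43 ± 0.37 with overlap. C1qb, a chain of C1q, was read at 26.7, 11.9, 18.1, and 25.9 RPM against 28.4, 30.4, 80.7, and 71.8 RPM, a difference of -1.23 ± 0.39. Of 27 receptors for the uptake of debris, 5 (18.5%) were higher and 6 (22.2%) lower, beside 13% and 7.05% of all genes. The scavenger receptor gene Msr1 (2.42) led the former, and Cd36 and the transglutaminase gene Tgm2 (-3.92) the latter. When the libraries of mixed sex were left out, 3 of these receptors were called higher and 5 lower. The mannose receptor gene Mrc1 and the apoptotic cell receptor gene Mertk were not called.

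Of 55 nuclear genes of mitochondrial respiration, 13 were higher and none lower, with a median of 0.52, but 7 were called after RLE rescaling and none without the libraries of mixed sex, where the median was 0.44. Ndufa4, a subunit of the respiratory chain, was read at 207, 192, 195, and 228 RPM in Ly6C hi and at 166, 137, 128, and 76.1 RPM in Ly6C low libraries, a difference of 0.74 ± 0.22. Among glycolysis and pentose phosphate genes 6 of 30 (20%) were higher and 4 (13.3%) lower, beside 13% and 7.05% of all genes. The counts were 4 and 1 when the libraries of mixed sex were left out. Pgd, an enzyme of the pentose phosphate pathway, was read at 474, 819, 585, and 599 RPM against 212, 246, 276, and 275 RPM, a difference of 1.27 ± 0.18. Eno3, which encodes the muscle enolase, went the other way with -3.72 ± 0.44. Of 52 lysosomal genes, 12 (23.1%) were higher and 3 (5.77%) lower. The higher ones included Cd63 (3.53) and the cholesterol carrier gene Npc2 (1.78). The 3 lower genes were Acp5 (-2.41), the cathepsin gene Ctsb (-0.85), and the regulator gene Tfeb (-0.78), and RLE rescaling made the counts 10 and 5. Without the libraries of mixed sex 4 lysosomal genes were called higher and 1 lower. None of 13 cytosolic ribosomal protein genes was called, and 1 of these, Rplp0, was read at only 0.799 to 3.98 RPM.

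Of 37 NF-κB and immediate early genes, 2 (5.41%) were higher and 6 (16.2%) lower, beside 13% and 7.05% of all genes. Of 18 genes of the IL-1 family and the inflammasome, 5 (27.8%) were higher and 2 (11.1%) lower. The counts were 1 and 2, and 3 and 0, when the libraries of mixed sex were left out. Fos, an AP-1 subunit gene induced by handling and stimulation, was read at 112, 280, 166, and 520 RPM in Ly6C hi and at 46.5, 75.8, 18.0, and 401 RPM in Ly6C low libraries, with replicate 4 the highest in both subsets. Il1b, which encodes IL-1β, was read at 73.9, 94.7, 82.2, and 421 RPM against 437, 398, 208, and 770 RPM, a difference of -1.70 ± 0.54 (adjusted p = 0.048) with overlap, again highest in replicate 4. Mefv, which encodes the inflammasome sensor pyrin, was read at 79.2, 113, 108, and 80.0 RPM against 16.3, 18.7, 21.5, and 16.1 RPM, a difference of 2.32 ± 0.19. Nlrp3 differed by 0.74 ± 0.22, and Il1r2, the decoy receptor of IL-1, by 1.65 ± 0.33. In the Bcl2 family, Bcl2 was read at 15.2, 14.9, 9.03, and 11.4 RPM in Ly6C hi and at 33.4, 47.8, 68.1, and 85.3 RPM in Ly6C low libraries, a difference of -2.07 ± 0.30. The proapoptotic gene Bcl2l11, which encodes BIM, was read at 49.2, 21.2, 61.7, and 22.9 RPM against 16.2, 23.7, 11.6, and 6.15 RPM and missed the threshold (adjusted p = 0.051).

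Genes of antigen presentation were divided, with 5 of 20 higher and 5 lower, or 4 and 2 without the libraries of mixed sex. Ciita, which encodes the transactivator of MHC class II, was read at 233, 132, 156, and 122 RPM in Ly6C hi and at 69.3, 89.3, 61.6, and 67.0 RPM in Ly6C low libraries, a difference of 1.12 ± 0.22. The class II genes H2-Aa and Cd74 overlapped, with 627 to 1057 against 437 to 1448 RPM and 4720 to 7162 against 4272 to 11548 RPM. Cd274, which encodes PD-L1, differed by -2.76 ± 0.32.

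Markers of other cell types were called as follows, in short lists beside 13% higher and 7.05% lower of all genes. Of plasmacytoid dendritic cell genes 5 of 9 were higher. These included Bst2 and Irf8, which were also counted above as an interferon-stimulated gene and a transcription factor. Siglech was read at 18.5, 17.7, 17.7, and 16.4 RPM in Ly6C hi and at 0.969, 1.27, 4.74, and 1.76 RPM in Ly6C low libraries. NK cell markers summed to 1071 RPM in Ly6C hi replicate 1 and to 71.7, 73.3, and 197 RPM in the other Ly6C hi libraries, beside 11 to 44.5 RPM in Ly6C low libraries. Klrb1c, which encodes the NK1.1 antigen used in the gate, followed this pattern in Ly6C hi with 174, 0.406, 3.48, and 14.2 RPM. T cell markers, 2 of 7 of which were higher and 1 lower, summed to 203 RPM in Ly6C hi replicate 1 and 36.4 to 49.5 RPM in the other Ly6C hi libraries. In Ly6C low libraries they summed to 32.8 to 59.9 RPM, which overlapped with Ly6C hi replicates 2 to 4. The B cell gene Cd79a was not analysed here. Cd22, an inhibitory receptor, was read at 16.7, 13.3, 7.05, and 13.2 RPM in Ly6C hi and at 175, 190, 218, and 185 RPM in Ly6C low libraries and held most of the B cell sum of 202 to 251 RPM. Red pulp macrophage genes were called higher in 1 and lower in 3 of 16, or lower in 5 after RLE rescaling, conventional dendritic cell genes in 4 and 3 of 14, and NK cell genes higher in 2 of 11. The 3 lower red pulp macrophage genes were Treml4, C1qb, and Trem3, which were also counted among the Ly6C low, complement, and Fc receptor genes in that order. Of the NK cell genes called, Nkg7 was also counted among the azurophil granule and progenitor genes. For eosinophil, basophil and mast cell genes the counts were 2 higher and 1 lower of 9, for erythroid genes 1 lower of 5, and for platelet genes 2 lower of 7. Ccr3 and Itgb3 among these, and Batf3 and Flt3 among the conventional dendritic cell genes, were also counted in other lists. The part of these cells in the differences above was not tested.

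The same contrast was then set beside that of the other genotypes, each from its own 8 libraries. Of 10432 genes tested in WT, 1885 were higher and 981 lower in Ly6C hi. The 1885 included 1078 of the 1318 genes higher in Slc29a3-/- Tlr7-/-, that is 81.8% of the double mutant's genes and 57.2% of those of WT. Of the genes lower in the double mutant, 490 were also lower in WT (68.4% and 49.9%). Of 10137 genes tested in Slc29a3-/- mice 1842 were higher and 2239 lower. The double mutant shared 966 and 614 of these, that is 73.3% and 85.8% of the double mutant's genes and 52.4% and 27.4% of those of Slc29a3-/-. Across 9810 genes tested in every genotype, Spearman's rho of the differences was 0.75 with WT and 0.69 with Slc29a3-/-, across genes, which are not independent.

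WT replicates 1 to 3 and WT replicate 4 stood apart from each other in both subsets. Fos was read at 3572, 4128, 3879, and 145 RPM in the Ly6C hi and at 3399, 2446, 2870, and 38.9 RPM in the Ly6C low WT libraries, and Egr1, an immediate early factor gene, at 497, 464, 536, and 5.54 RPM and at 403, 279, 433, and 8.43 RPM. For Ccl3 the values were 1004, 999, 947, and 6.32 RPM and 524, 362, 483, and 7.97 RPM. Xist was read at 476 to 695 RPM in replicates 1 to 3 of WT and at 0 in replicate 4, whereas Ddx3y was read only in replicate 4, at 97 RPM in Ly6C hi and 197 RPM in Ly6C low. In the other genotypes Fos was far below WT replicates 1 to 3, at 18.0 to 520 RPM in the double mutant and 29.6 to 79.5 RPM in Slc29a3-/-. WT replicates 1 to 3 carried barcodes 11 to 16 and held 14237202 to 14572065 inferred reads. WT replicate 4 carried barcodes 29 and 35, and its libraries and those of the mutants held 12311129 to 13048426 reads. The part of this split in the comparisons with WT was not tested beyond the counts that follow.

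Whether the subset difference itself changed with genotype was tested as an interaction over all 24 libraries. Against WT, 3 of 11042 genes (0.0272%) had a higher and 4 (0.0362%) a lower difference in the double mutant, 0.0634% together, while 1067 genes had an unadjusted p under 0.05. S100a9 had a difference larger by 5.90 ± 1.12 (adjusted p = 0.046). In WT it was read at 8887, 7905, 9037, and 7278 RPM in Ly6C hi libraries, which is within the range of the double mutant, and at 499, 864, 394, and 23.0 RPM in Ly6C low libraries, all above the double mutant's 8.63 RPM or less. Itgb3, the β3 integrin chain, had a difference lower by 1.23 ± 0.24 (adjusted p = 0.048), with Ly6C low values from 89.8 to 183 RPM in the double mutant and 32.2, 36.2, 37.8, and 41.0 RPM in WT. The other 5 genes, Epcam, Fcrl5, Pdzk1ip1, Cbr2, and Dpep3, were read below 16 RPM throughout. The limma count was 0 in both directions when the libraries of mixed sex were left out and when Ly6C hi WT replicate 1 or 3, Ly6C low WT replicate 2 or 3, or replicate 3 of either subset of the double mutant was left out. With replicate 4 as the only WT library of each subset it was also 0, where the lone library was assumed to vary like those of the other groups. Without Ly6C low WT replicate 4, in which S100a9 was lowest, 42 genes were higher and 38 lower. Without Ly6C hi WT replicate 4 the counts were 7 and 25, without Ly6C low WT replicate 1 they were 0 and 2, and without Ly6C hi replicate 1 of the double mutant 12 and 18. Without Ly6C low replicate 1, 2 or 4 of the double mutant they were 7 and 6, 4 and 7, or 5 and 5.

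Against Slc29a3-/-, the difference was higher in 487 genes (4.41%) and lower in 500 (4.53%) of the double mutant, 8.94% together. With TMM factors, under which the median over all genes moved from 0.20 to 0.03, the counts were 287 and 686. They were 241 and 322 without Ly6C hi Slc29a3-/- replicate 4, and the higher count fell to 261 and 293 without Ly6C low Slc29a3-/- replicate 4 or 3 and to 301 without Ly6C hi replicate 3 of the double mutant. Of the mitotic genes, 36 of 51 had a smaller difference in the double mutant, and so did 20 of 40 replication genes. Top2a was read at 284, 231, 379, and 381 RPM in Slc29a3-/- Ly6C hi libraries, all above the 56.4 to 129 RPM of the double mutant, and the Ly6C low libraries of both genotypes overlapped. Its difference was smaller by 1.66 ± 0.45 (adjusted p = 0.022). Mcm5, which was not called within the double mutant, had a difference smaller by 1.68 ± 0.31. The genes with the largest changes were Mmp9 (gelatinase B, -4.58), Il1r2 (-3.18), the glucose transporter gene Slc2a3 (-3.09), and the short-chain fatty acid receptor gene Ffar2 (-2.97). In each of these 4 the Ly6C low value was higher and the Ly6C hi value lower in the double mutant than in Slc29a3-/- on average.

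In the other direction the interaction was led by Cd5l (3.28), Cd200r1 (3.15), Slc4a1 (3.07), and C1qb (2.92). C1qb, which was read at 28.4 to 80.7 RPM in Ly6C low libraries of the double mutant, was read at 78.6, 158, 139, and 241 RPM in those of Slc29a3-/-, and Cd5l, a macrophage gene, at 6.04 to 28.8 against 34.3 to 114 RPM. Slc4a1, which encodes the anion exchanger of red cells, was read at 1.43 to 8.13 RPM against 45.7 to 63.9 RPM. Red pulp macrophage genes had a higher difference in 8 of 18 and a lower one in 1, lysosomal genes a higher one in 10 of 53, erythroid genes in 5 of 8, and plasmacytoid dendritic cell genes in 5 of 10. Cd200r1, an inhibitory receptor, was higher in Ly6C hi within the double mutant (2.27) and lower within Slc29a3-/- (-0.88).

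**Figure D5:**
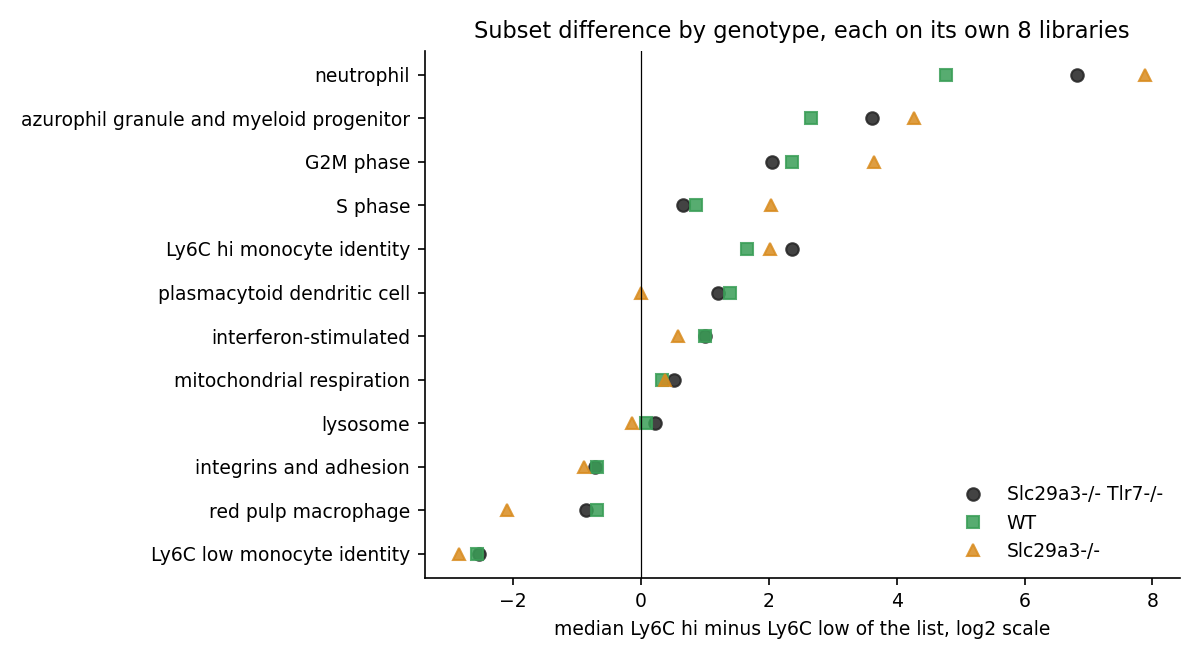
Median difference between Ly6C hi and Ly6C low monocytes (x axis, log2 scale) over the tested genes of 12 lists (y axis) in Slc29a3-/- Tlr7-/- (circles), WT (squares), and Slc29a3-/- (triangles), each from its own 8 libraries. For the mitotic genes the medians are 2.06, 2.37, and 3.65, and for the red pulp macrophage genes -0.86, -0.68, and -2.09.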

How the data were processed

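The values were RPM per amplicon, which the authors deposited in 1 table of 23930 amplicons for 24 libraries of Ion AmpliSeq Transcriptome Mouse RNA. The study's methods name the AmpliSeqRNA plug-in, Cutadapt, STAR, HTSeq and DESeq2 on mm10, and do not state which step wrote the table. In it 0.0001 stands for no read and was replaced by 0. Names of 27 genes that had become dates were repaired, and 22654 symbols matched RefSeq (GRCm38.p6). Depth was inferred from the step between low values, at which 100.0% of values were whole reads within 0.1 read. No count test was run, because the values are RPM.

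Genes that reached 1 RPM in 4 or more of the fitted libraries, which were 8 (24 for interactions), were fitted as log2(RPM + 1) with limma 3.58.1 in R 4.3.3 (lmFit, eBayes with an intensity trend) and called at a fold change over 1.5 and a Benjamini-Hochberg adjusted p under 0.05. Interactions shared 1 estimate of the spread over 6 groups. P-values measure the spread between libraries, which nothing in the labels ties to separate mice. The 35 gene lists, the comparison and its members were chosen with earlier results of these data known. Genes named were the examples marked in those lists, the 12 largest calls in each direction with a mean of at least 10 RPM and no overlap, the 4 largest interactions in each direction, and the sort, genotype and sex-linked genes; further list members were named after their values were seen, and some genes are not reported here. Deviations of same-numbered replicates correlated at r = 0.373, -0.498, -0.173, and 0.068, and the numbers were not used as pairs in the main fit. The sex-linked RNAs nonetheless matched by number in replicates 1, 2, and 4. In both subsets replicate 1 held Ddx3y without Xist above 1 RPM, replicate 2 both, and replicate 4 Xist without Ddx3y. In replicate 3 Ly6C hi held both and Ly6C low Ddx3y alone. Whether same-numbered libraries shared mice was not tested. The fits were tested on simulated data.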

Additional observations from a re-analysis of the deposited data

Results flagged for a closer look

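Of 114 genes named, the 4 values of each subset were examined for a library far from the rest, and 18 of the 228 groups held one by Dixon's test, which chance gives in about 1 in 20 groups. Ly6C hi replicate 1 stood above its group for the NK1.1 gene Klrb1c (174 RPM, the others 0.406 to 14.2), Treml4 (368 RPM, the others 190 to 196), Dusp16 (36.4 RPM, the others 14.5 to 18), Ifit1 (69.3 RPM, the others 57.2 to 59.1), and Slc4a1 (0.308 RPM, the others 0). Ly6C hi replicate 4 was the highest for Il1b (421 RPM, the others 73.9 to 94.7) and Ccl3 (134 RPM, the others 15.6 to 21) and the lowest for Pecam1 (23.2 RPM, the others 32 to 33.5). Ly6C low replicate 4 was the highest for Fos (401 RPM, the others 18 to 75.8), Egr1, an immediate early factor (38.1 RPM, the others 9.21 to 12.7), Tlr2 (69.7 RPM, the others 17.7 to 23.7), the cathepsin gene Ctsl (74.6 RPM, the others 49.9 to 52.4), and Gfi1 (0.24 RPM, the others 0). Ly6C low replicate 1 was the highest for S100a8 (5.01 RPM, the others at most 0.32), Mmp8 (4.04 RPM, the others at most 0.318), and Clec5a (0.081 RPM, the others 0). Ly6C low replicate 2 was the highest for Pecam1 (631 RPM, the others 438 to 465) and Mpo (0.079 RPM, the others 0). The values of Slc4a1, Gfi1, Clec5a, and Mpo were of 4 reads or fewer.

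The subset difference itself differed between genotypes for 10 of the named genes in limma's interaction test with Benjamini-Hochberg adjustment over 11042 genes. Against WT these were S100a9 (5.90, adjusted p = 0.046) and Itgb3 (-1.23, adjusted p = 0.048). Against Slc29a3-/- the difference was lower for Mmp9 (-4.58, adjusted p = 0.0014), Il1r2 (-3.18, adjusted p = 0.0038), Slc2a3 (-3.09, adjusted p = 0.00028), and Ffar2 (-2.97, adjusted p = 0.001). It was higher for Cd5l (3.28, adjusted p = 0.008), Cd200r1 (3.15, adjusted p = 0.00033), Slc4a1 (3.07, adjusted p = 0.00088), and C1qb (2.92, adjusted p = 0.00053).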

How the results depend on the processing

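Depth limits values near 0.231 to 0.244 RPM, which is 3 reads. The counts of 1318 genes higher and 716 lower stayed within 1.5 times under TMM and RLE scaling, no filter, a mean of 10 RPM or more, a pseudocount of 0.1, no intensity trend, and the replicate block (1103 and 575), and when 1 library was left out (893 to 1372 and 500 to 736). Without 1 Ly6C hi library the limit of 4 libraries drops genes read in Ly6C hi alone. They were 647 and 281 on the same genes, and 398 and 232 on those past the filter, without the libraries with both Xist and Y-linked reads, and 2063 and 1064 in a fit of all 24 libraries. The removal of these libraries, and WT replicate 4 as the only WT, assumed to vary like the other groups, were chosen after seeing the data. Against WT (3 higher, 4 lower) the counts were 1 and 3 with TMM and with RLE, 0 and 2 with no filter, 0 and 0 at 10 RPM, 12 and 2 with a pseudocount of 0.1, 3 and 3 without the trend, 1 and 0 with the replicate block, 474 and 387 at unadjusted p, 0 and 0 without the libraries of mixed sex and with WT replicate 4 alone, and 0 to 42 and 0 to 38 with 1 library left out. Against Slc29a3-/- (487 higher, 500 lower) they were 287 and 686 with TMM, 276 and 697 with RLE, 312 and 384 with no filter, 287 and 316 at 10 RPM, 356 and 307 with a pseudocount of 0.1, 493 and 468 with the replicate block, 1607 and 891 at unadjusted p, 713 and 320 without the libraries of mixed sex, and 241 to 708 and 322 to 560 with 1 library left out. The share called higher was 49.3% without rescaling, 29.5% with TMM, and 28.4% with RLE. The cause of these changes was not tested. Not every library correlated best with its own number, which does not show whether same-numbered libraries shared mice. Of 114 named genes, the block left 108 calls as they were. A reversal of sign was found in 7 of these genes, none of which was called, beside Ldha, whose difference rounded to 0 and ran from -0.33 to 0.18 with 1 library left out. Cx3cr1 (0.02) gave -0.05 with TMM, -0.09 with RLE, and -0.38 to 0.33 with 1 library left out. Under the same settings H2-Aa (0.02) gave -0.04, -0.09, and -0.28 to 0.30, and Tlr2 (0.05) gave -0.02, -0.06, -0.15 to 0.48, and -0.31 without the libraries of mixed sex. Itgam (0.08) gave -0.03 with RLE, -0.07 without the libraries of mixed sex, and -0.03 to 0.14 with 1 left out. Egr1 (-0.07) and Mmp9 (-0.12) gave 0.03 and 0.89 without the libraries of mixed sex, and -0.38 to 0.35 and -0.77 to 0.36 with 1 library left out. Cd74 (-0.19) gave -0.41 to 0.07 with 1 left out.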
